A study of Mus musculus with 6 samples.

Results

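Cyclic AMP phosphodiesterases are the enzymes that break down cyclic AMP, the messenger through which gonadotropins act on the ovarian follicle. Their genes were followed in mouse cumulus cells, the somatic cells around the oocyte, without and with human chorionic gonadotropin (hCG), which is given to trigger ovulation. The family was taken as 10 named genes, Pde3a, Pde3b, Pde4a, Pde4b, Pde4c, Pde4d, Pde7a, Pde7b, Pde8a and Pde10a, and as every probe set that the array's annotation gives to 1 of these symbols alone. A probe set is a group of short probes on the array that together read a transcript. Of the 10 genes, 9 had such a probe set, with 30 probe sets in all, out of 34958 probe sets and 18194 genes with a single symbol. Pde4c was not analysed here.

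The samples were 6 pools of cumulus cells from wild-type mice, each from 50 cumulus-oocyte complexes and each read on its own 1-colour array. All females were primed for 46 h, from 21 days of age, with 5 IU of equine chorionic gonadotropin (eCG), a hormone that makes follicles grow. In the hCG-0h group (3 samples) nothing was added, and in the hCG-6h group (3 samples) the mice then spent 6 h under 5 IU of hCG. The age label reads 23 days in both groups. In the free-text descriptions, hCG-6h samples 2 and 3 carry 7 h and 8 h, against 6 h in their titles, and both were kept in the hCG-6h group. No group was kept for the same 6 h without hCG, so the hormone and the passage of time cannot be told apart. Nothing in the labels says that samples came from separate animals, so p-values measure only the spread between these samples, which may be technical. The collection medium of both groups held 5 µM milrinone, an inhibitor of PDE3 enzymes. The sources used here do not give the strain.

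Phosphodiesterases set how high and how long a rise in cyclic AMP is. PDE4 enzymes are specific for cyclic AMP, are inhibited by rolipram and are themselves raised by cyclic AMP in many cells, a form of feedback. PDE3A is known as the main phosphodiesterase of the oocyte, where it is held back by cyclic GMP that passes in from cumulus cells, while PDE4 enzymes are the ones known from granulosa and cumulus cells. PDE7 and PDE8 enzymes are cyclic AMP-specific with a high affinity, and PDE10A takes both cyclic AMP and cyclic GMP.

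The sequences shown here are the places where the core of the cyclic AMP response element, the site bound by CREB factors, lies near an annotated start of a family member. RefSeq promoter windows (GRCm38.p6, 250 bases before to 50 after a start) were given for 7 of the 10 genes, 13 windows in all, 4 of them for Pde4b. The full element, TGACGTCA, which reads the same on both strands, was in 0 of the 13 windows and in 1.79% of all 32851 windows of that length. Its first 5 bases, TGACG on either strand and also contained in the full element, were in 3 of the 13 windows and in 20.8% of all windows. The capitals mark those 5 bases in the 3 windows, with 20 bases on either side, read 5′ to 3′ on the gene's strand, which is the plus strand in all 3. In Pde4b (chr4:102421501-102421545) the core begins 34 bases before the start, in Pde4a (chr9:21184031-21184075) 50 bases before and in Pde8a (chr7:81213161-81213205) 84 bases before.
Pde4b: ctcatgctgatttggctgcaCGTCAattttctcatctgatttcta
Pde4a: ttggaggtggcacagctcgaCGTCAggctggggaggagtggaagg
Pde8a: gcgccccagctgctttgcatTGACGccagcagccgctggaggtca
In Pde4b and Pde4a the capitals are the core as read on the opposite strand. A match of these letters is a description and not a measured binding site.

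After hCG the family moved unevenly. Pde4b rose in 3 of its 6 probe sets, Pde4d in 1 of its 2 and Pde10a in 3 of its 5. Pde7b fell in its reference probe set, and Pde3a, Pde3b, Pde4a and Pde8a did not pass in any probe set. Over all 30 probe sets 7 rose, 2 fell and 21 were not called (limma, adjusted p under 0.05, Benjamini-Hochberg over all 34958 probe sets). Of all probe sets 18.7% were called, 9.28% as rises and 9.43% as falls. Without hCG-0h sample 3 or any 1 hCG-6h sample, 1 member probe set fell in place of 2, since 1423314_s_at of Pde7a was then not called. The groups did not overlap in 10 of the 30 probe sets, 8 higher and 2 lower at hCG-6h, against 36.3% of all probe sets, 18.1% higher and 18.2% lower. The median log2 change of the 30 probe sets was 0.022, and that of all probe sets -0.003. Of the 30, 8 belonged to the dimmest 1 in 3 of all probe sets (a mean log2 value under 5.89), where background correction compresses changes, and 2 of these 8 were called against 5.31% of all such dim sets. All values below are log2 values as deposited, and a change is hCG-6h minus hCG-0h with limma's standard error (SE).

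**Figure D1:**
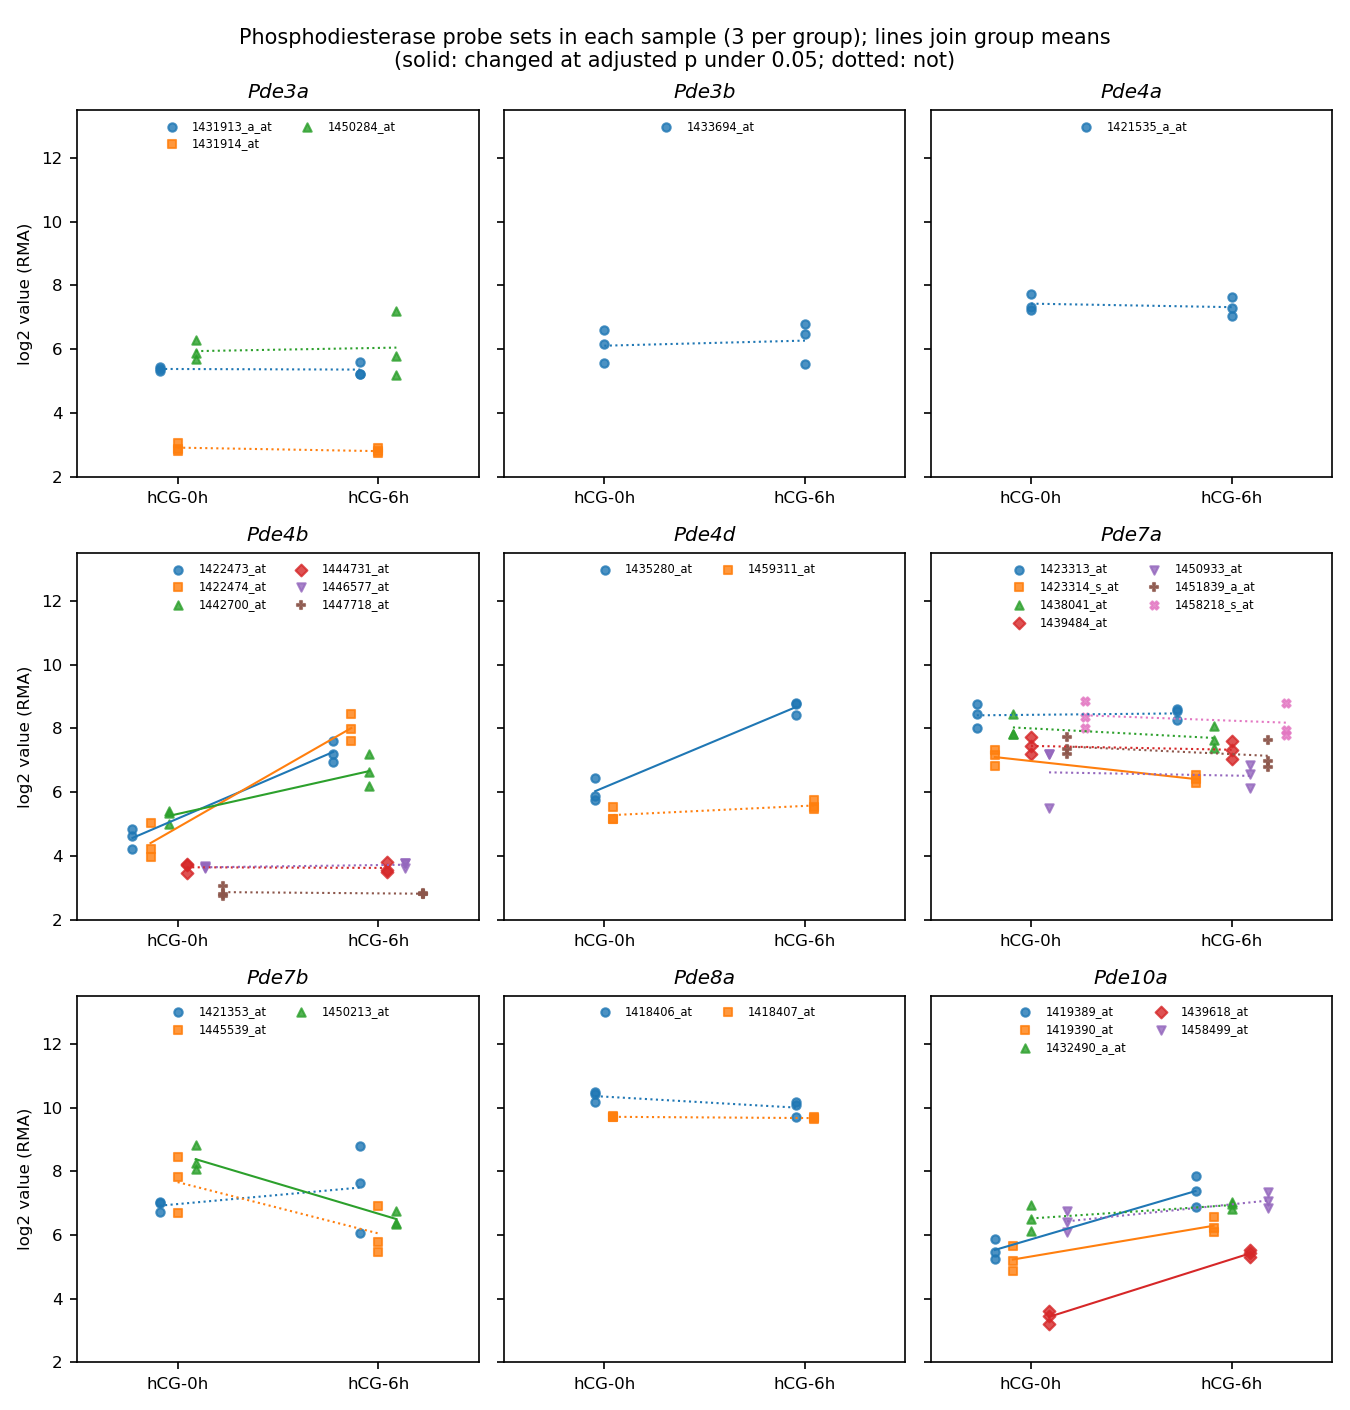
Deposited log2 values (vertical axis) of every probe set of the 9 measured genes in the 3 hCG-0h and 3 hCG-6h samples (horizontal axis, offset by probe set), with a line between group means that is solid where the change was called. The called rises are in Pde4b, Pde4d and Pde10a, the called falls are in Pde7a and Pde7b, and neither probe set of Pde8a was called.

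Pde4b, which encodes a PDE4 enzyme inducible by cyclic AMP and by inflammatory signals, gave the largest change of the family. Its reference probe set, 1422474_at, which here means the set whose mean over the 6 arrays was highest, read 5.03, 3.95 and 4.22 in hCG-0h samples 1 to 3 and 7.61, 7.97 and 8.46 in hCG-6h samples 1 to 3. Every hCG-6h value was thus above every hCG-0h value, from a group that was dim to one that was not. The change was 3.61 ± 0.33 (SE, n = 3 each), a fold of 12.2, with adjusted p = 0.000683. The hCG-0h means of this set and of the other 2 Pde4b sets that rose lie in the dim range, so their folds are approximate. Probe set 1422473_at, designed from the same sequence record, read 4.63, 4.84 and 4.20 against 7.60, 6.96 and 7.21, a change of 2.70 ± 0.23 (6.50-fold, adjusted p = 0.000497). The groups again stood well apart. Probe set 1442700_at, designed from another record, read 5.33, 5.41 and 5.01 against 6.18, 7.19 and 6.62, a smaller rise of 1.41 ± 0.26 (2.66-fold, adjusted p = 0.0123). At hCG-0h the mean of 1422474_at (4.40) was below those of 1422473_at (4.56) and 1442700_at (5.25). It became the reference through its hCG-6h mean (8.01 against 7.26 and 6.66). For Pde4b the choice of reference therefore favoured the set with the largest rise. With hCG-6h sample 1 as the only treated sample, the one whose description and title both give 6 h, the rise of 1442700_at was 0.93 and was not called (adjusted p = 0.0985).

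The other 3 Pde4b probe sets stayed dim in both groups. Probe set 1444731_at had means of 3.64 ± 0.15 and 3.62 ± 0.15 (SD, n = 3 each), 1446577_at 3.64 ± 0.03 and 3.72 ± 0.08, and 1447718_at 2.86 ± 0.16 and 2.81 ± 0.02. None of these 3 was called (adjusted p = 0.943, 0.661 and 0.851), and their 95% confidence intervals for the log2 change lay within -0.35 and 0.33. The lowest value on any of the 6 arrays lay between 2.43 and 2.48, so these sets read close to the floor, and whether they detect a Pde4b transcript was not tested.

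Whether probe sets of a gene changed by different amounts was tested on the difference between each probe set and the gene's reference set within an array, for all 16764 such pairs in the table. Of those, 2.7% were called at adjusted p under 0.05 (limma, Benjamini-Hochberg), and 6 of the 21 pairs of the family were, a count that dropped to 3 without hCG-0h sample 3, hCG-6h sample 2 or hCG-6h sample 3. For Pde4b, 4 of 5 pairs were called. The change of 1422473_at was smaller than that of 1422474_at by an amount within error (-0.91 ± 0.44, 95% confidence interval -1.97 to 0.14, adjusted p = 0.359). That of 1442700_at was smaller by more, with a difference of -2.20 ± 0.38 (adjusted p = 0.0370). This call ended whichever of the 6 samples was left out (difference -2.49 to -1.89, adjusted p 0.0538 to 0.107) and without the dimmest 1 in 3 probe sets (adjusted p = 0.0543). The 3 dim sets differed from the reference by -3.53 to -3.66 (adjusted p = 0.00452 to 0.00686), and those calls held without each sample in turn. Their own changes were -0.02, 0.08 and -0.04, so these differences, 3 of the 6 called, restate the rise of the reference set. They do not show that Pde4b transcripts changed by different amounts. The annotation used here does not say which exons or isoforms a probe set reads. The 4 RefSeq start windows of Pde4b lie between 102421305 and 102589892 on chr4 (GRCm38.p6), and which start was used was not tested.

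Pde4d, which encodes a PDE4 enzyme known from granulosa cells, with short forms induced by cyclic AMP, rose in 1 of its 2 probe sets. The reference set, 1435280_at, read 5.89, 6.43 and 5.76 at hCG-0h and 8.41, 8.81 and 8.78 at hCG-6h. The lowest hCG-6h sample was well above the highest hCG-0h sample. The change was 2.64 ± 0.21 (SE, n = 3 each), 6.23-fold, with adjusted p = 0.000397, and it was called under every alternative tried, 14 in all (2.38 to 2.84). Probe set 1459311_at, dim throughout, read 5.54, 5.15 and 5.15 against 5.74, 5.47 and 5.54. Its groups overlapped, and the change of 0.30 ± 0.15 was not called (95% confidence interval -0.06 to 0.67, adjusted p = 0.235). The changes of the 2 sets differed by -2.34 ± 0.30 (adjusted p = 0.0142), which largely restates the rise of 1435280_at, as 1459311_at was dim and not called. That difference missed the threshold without hCG-0h sample 3 (-2.27, adjusted p = 0.0608), hCG-6h sample 2 (-2.21, adjusted p = 0.0596) or hCG-6h sample 3 (-2.26, adjusted p = 0.0600).

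**Figure D2:**
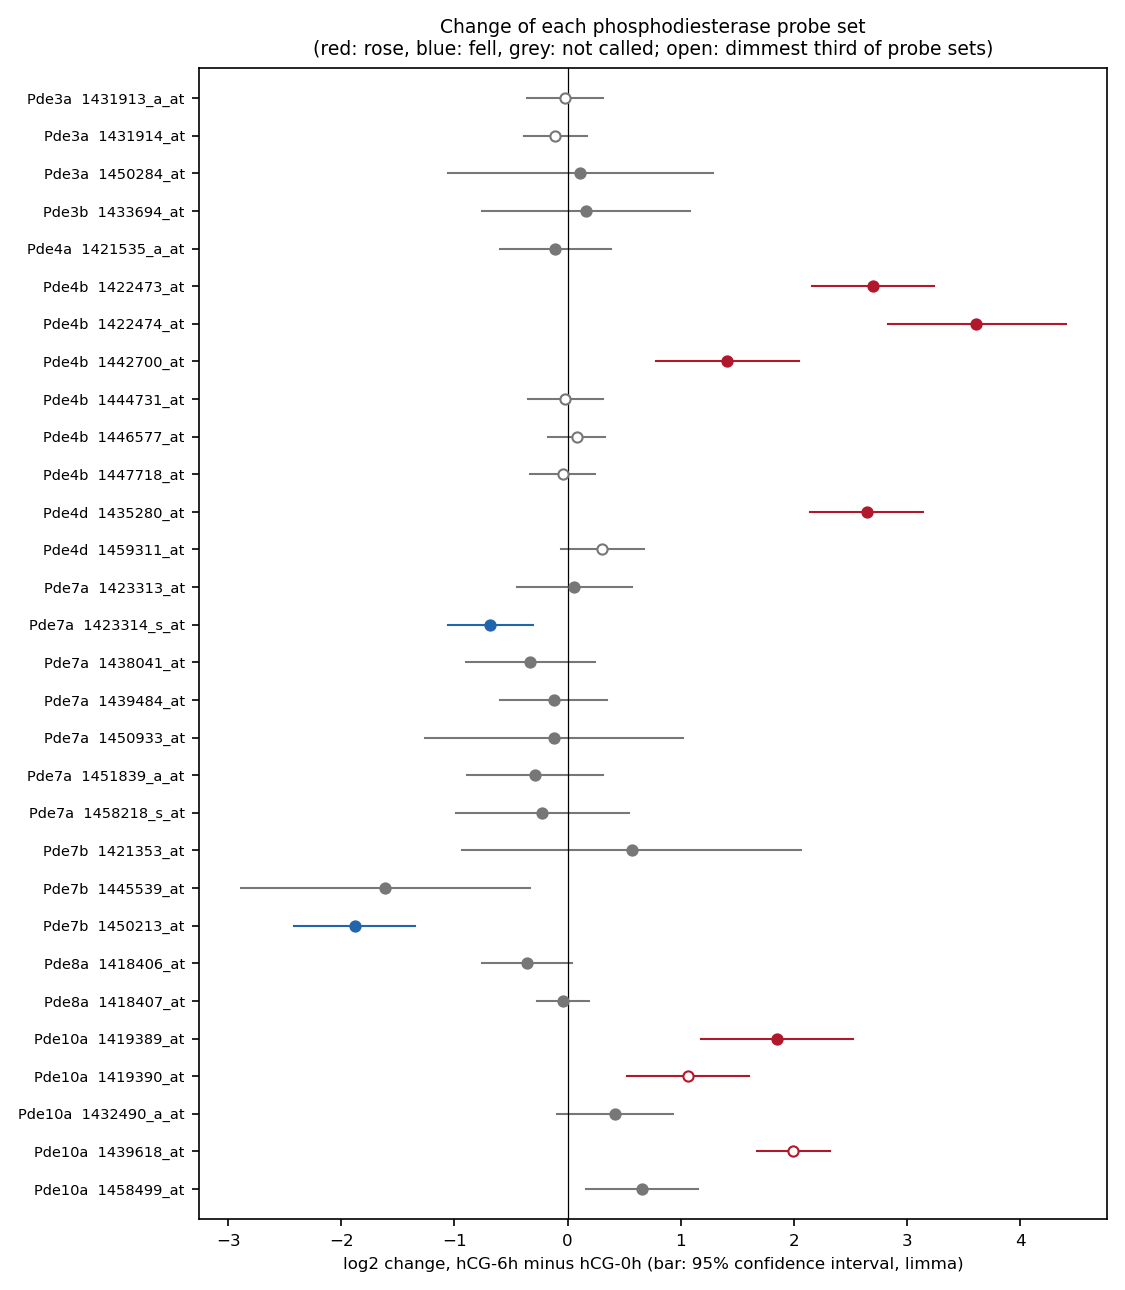
Log2 change, hCG-6h minus hCG-0h (horizontal axis), of the 30 probe sets with 95% confidence intervals from limma, red for called rises, blue for called falls and grey for the rest, with open points for probe sets in the dimmest 1 in 3. The intervals of the 3 brighter Pde4b sets and of Pde4d 1435280_at lie wholly above 0, whereas those of the 3 dim Pde4b sets are narrow and span 0.

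The remaining PDE4 gene measured, Pde4a, did not pass. Its only probe set, 1421535_a_at, a type that reads several transcripts of a gene, stood at 7.73, 7.34 and 7.22 at hCG-0h and at 7.64, 7.03 and 7.30 at hCG-6h. The groups overlapped, and the interval of the change ran from -0.60 to 0.38 (-0.11 ± 0.21, adjusted p = 0.779).

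Pde10a, which encodes a dual-specificity phosphodiesterase best known from the striatum, was higher at hCG-6h to a degree that depended on the probe set. Probe set 1439618_at read 3.22, 3.60 and 3.47 at hCG-0h and 5.42, 5.32 and 5.53 at hCG-6h, a change of 1.99 ± 0.14 (3.98-fold, adjusted p = 0.000242). Probe set 1419389_at read 5.88, 5.46 and 5.24 against 7.86, 7.39 and 6.88, a change of 1.85 ± 0.28 (3.61-fold, adjusted p = 0.00548). Both were dim at hCG-0h, so these folds are approximate. In both, all hCG-6h samples lay above all hCG-0h samples, and both were called under every alternative that could give a value. Probe set 1419390_at, from the same record as 1419389_at, read 5.65, 4.87 and 5.18 against 6.22, 6.56 and 6.10, a change of 1.06 ± 0.23 (adjusted p = 0.0206). That last call was lost with the sample number as a replicate block (adjusted p = 0.0548) and when hCG-0h sample 2, hCG-0h sample 3, hCG-6h sample 1 or hCG-6h sample 2 was left out (adjusted p = 0.0527, 0.0659, 0.0533 and 0.0632).

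The other 2 Pde10a sets moved less and were not called. The reference set, 1458499_at, read 6.42, 6.76 and 6.10 at hCG-0h and 6.84, 7.34 and 7.07 at hCG-6h. Its groups did not overlap, yet the change of 0.66 ± 0.21 was not called (adjusted p = 0.0766). Probe set 1432490_a_at changed by 0.42 ± 0.21 (adjusted p = 0.237). Against the reference set, the larger change of 1439618_at was called, with a difference of 1.34 ± 0.24 (adjusted p = 0.0429). It was not called with any 1 of the 6 samples left out (1.22 to 1.52, adjusted p 0.0581 to 0.136), with a replicate block (adjusted p = 0.0822), with a trend and robust variance (adjusted p = 0.0525) or after quantile normalization was applied again (adjusted p = 0.0501). With the mean of its probe sets in place of the reference set, Pde10a rose by 1.20 (adjusted p = 0.000676).

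Pde7b, a cyclic AMP-specific enzyme with high affinity, was lower at hCG-6h in its reference set. Probe set 1450213_at read 8.26, 8.07 and 8.82 at hCG-0h and 6.35, 6.76 and 6.39 at hCG-6h. All treated values were more than 1 log2 unit below all untreated ones, and the change was -1.88 ± 0.22 (3.69-fold lower, adjusted p = 0.00201). It was called under all 14 alternatives. Probe set 1445539_at read 8.46, 6.68 and 7.83 against 5.47, 5.77 and 6.90, and its groups overlapped because hCG-0h sample 2 was below hCG-6h sample 3. Its change of -1.61 ± 0.53 was not called (adjusted p = 0.0874) but was without hCG-0h sample 2 (-2.10, adjusted p = 0.0375).

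The remaining Pde7b set, 1421353_at, designed from the same record as 1450213_at, behaved otherwise. It read 7.01, 6.71 and 7.04 at hCG-0h and 8.78, 7.63 and 6.05 at hCG-6h, so that hCG-6h samples 1 and 2 were above all hCG-0h samples and hCG-6h sample 3 was below them. The change of 0.57 ± 0.63 was not called (95% confidence interval -0.93 to 2.06, adjusted p = 0.604), and with hCG-6h sample 1 alone it was 1.86 (adjusted p = 0.0209). Its difference from 1450213_at was 2.45 ± 0.65 with an interval of 0.89 to 4.01, without overlap between groups, and it did not pass after adjustment over all pairs (adjusted p = 0.121).

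**Figure D3:**
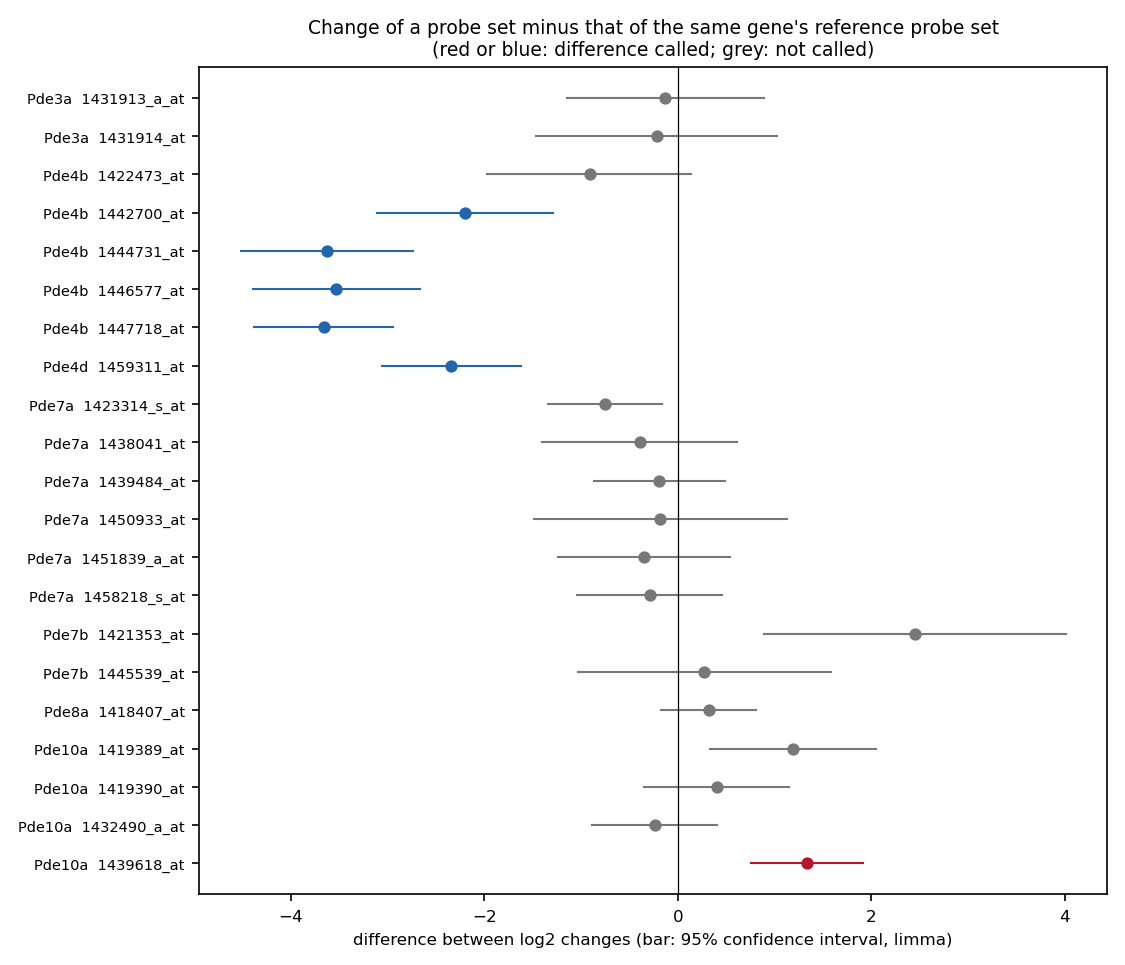
Difference between the log2 change of a probe set and that of the reference probe set of the same gene (horizontal axis) for the 21 pairs of the family, with 95% confidence intervals from limma, blue or red where called. The called pairs are 4 of Pde4b, 1 of Pde4d and 1 of Pde10a, and the widest interval is that of Pde7b 1421353_at, from 0.89 to 4.01.

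Pde7a, the relative of Pde7b, had the most probe sets, and most of them were not called. Its reference set, 1423313_at, stood at 8.46, 8.00 and 8.76 at hCG-0h and 8.54, 8.61 and 8.26 at hCG-6h, with overlapping groups (0.06 ± 0.21, 95% confidence interval -0.45 to 0.57, adjusted p = 0.879). Of the 7 sets 1 was called, 1423314_s_at, which read 6.82, 7.17 and 7.31 against 6.29, 6.54 and 6.41 (-0.69 ± 0.16, 1.61-fold lower, adjusted p = 0.0269). That call held without hCG-0h sample 1 and ended without any other sample (adjusted p 0.0508 to 0.0832). Sets of this suffix can also read transcripts of related genes. The other 5 sets changed by -0.33 to -0.12 and were not called. The widest of their intervals, that of 1450933_at, ran from -1.26 to 1.02. None of the 6 differences from the reference set was called (adjusted p = 0.195 or more).

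Pde8a, a high-affinity enzyme that resists the common inhibitor IBMX, was bright and was not called in either probe set. Probe set 1418407_at read 9.69, 9.70 and 9.75 at hCG-0h and 9.71, 9.65 and 9.66 at hCG-6h, and the groups overlapped. Its interval for the change, -0.27 to 0.19, was among the narrowest of the family (-0.04 ± 0.10, adjusted p = 0.829). Probe set 1418406_at read 10.43, 10.50 and 10.16 against 9.72, 10.19 and 10.09, with a change of -0.36 ± 0.17 that was not called (adjusted p = 0.197).

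Neither PDE3 gene passed in any probe set. For Pde3a, the oocyte enzyme, the reference set 1450284_at read 5.68, 5.87 and 6.28 at hCG-0h and 7.19, 5.79 and 5.18 at hCG-6h. The hCG-6h samples thus enclosed the hCG-0h samples, and the change of 0.11 ± 0.49 had an interval of -1.06 to 1.28 (adjusted p = 0.910). A change of 2-fold in either direction therefore lies within that interval. The other 2 Pde3a sets were dim, with means of 5.38 and 5.36 for 1431913_a_at and 2.91 and 2.80 for 1431914_at (adjusted p = 0.935 and 0.584). Pde3b, the PDE3 enzyme through which insulin lowers cyclic AMP in fat and liver cells, had 1 probe set, at 6.16, 5.56 and 6.61 against 6.79, 5.55 and 6.47 (0.16 ± 0.38, interval -0.76 to 1.08, adjusted p = 0.827).

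Oocyte markers stand beside the PDE3 values, because the extraction protocol names whole cumulus-oocyte complexes. Of 15 oocyte markers measured, 11 were in the dimmest 1 in 3 genes (a mean under 6.08), among them Gdf9, Bmp15, Zp1, Zp2 and Zp3, and Ooep alone was called, as a rise of 1.93 (adjusted p = 0.000547). Their summed unlogged level ranged from 804 to 995 at hCG-0h and from 1172 to 1302 at hCG-6h. The 9 measured cumulus and granulosa markers were all outside the dimmest 1 in 3, and their sum ranged from 45136 to 45726 and from 33754 to 35652. Fshr, Amhr2, Nr5a2 and Slc38a3 were the 4 that fell. The sum of 4 endothelial markers ranged from 138 to 274 at hCG-0h and from 310 to 524 at hCG-6h, with none called, and that of 6 leukocyte markers from 329 to 425 and from 387 to 397. Sums for 3 theca markers ranged from 1027 to 1116 and from 547 to 664, and for 2 red cell markers from 195 to 220 and from 103 to 116. For 3 smooth muscle markers they ranged from 245 to 347 and from 194 to 246. Single bright genes weigh heavily in such sums. Among the oocyte markers outside the dimmest 1 in 3, Ooep changed by 1.93, Dppa3 by 0.96, Padi6 by 0.1 and Kpna7 by -0.43. Ptch1 fell (-0.92) while the theca markers Cyp17a1 and Tcf21 changed by 0, and Alas2 fell (-1.35) while Hba-a1 changed by 0.25. Cdh5 changed by 1.63, against -0.2, 0.21 and 0.67 for Pecam1, Tek and Kdr. The part of other cells in the phosphodiesterase values was not tested. In bulk samples such as these, fewer cells of a type and less RNA per cell cannot be told apart.

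With 1 probe set per gene, the reference set, 2 of the 9 family genes rose (Pde4b and Pde4d), 1 fell (Pde7b) and 6 were not called, where 10.8% of all 18194 genes rose and 10.5% fell. Pde10a was among the 6 (0.66 ± 0.20, adjusted p = 0.0659) and passed without hCG-0h sample 2 (0.82, adjusted p = 0.0399) and with a replicate block (adjusted p = 0.0461). The median log2 change of the 9 genes was 0.11, and that of all genes 0.007. With the mean of all probe sets of a gene, the changes of Pde4b, Pde4d and Pde7b were 1.29, 1.47 and -0.98 and were still called. For Pde4b and Pde4d that mean includes the dim sets described above.

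Of 14 other phosphodiesterase genes, most of which act on cyclic GMP or on both nucleotides or serve the retina, 4 were called, against 21.3% of all genes. Pde1a, Pde5a and Pde6d rose, Pde9a fell and 10 were not called, with a median log2 change of 0.025. Pde1a, a calcium- and calmodulin-activated enzyme, read 5.70, 6.09 and 5.97 at hCG-0h and 7.86, 7.63 and 7.83 at hCG-6h in its reference set, which is a rise of 1.85 ± 0.14 (3.61-fold, adjusted p = 0.000217). Its groups were far apart relative to the spread within them. Pde5a, the cyclic GMP-specific target of sildenafil, rose by 1.11 ± 0.17 (2.16-fold, adjusted p = 0.00457), and Pde6d, a carrier of lipid-modified proteins, by 0.76 ± 0.13 (adjusted p = 0.00788). Pde9a, which is specific for cyclic GMP, fell by 0.83 ± 0.19 (adjusted p = 0.0252). Its adjusted p rose above the threshold when hCG-0h sample 1 (0.0596), hCG-0h sample 2 (0.0537), hCG-6h sample 2 (0.0601) or hCG-6h sample 3 (0.0766) was dropped. Pde8b, the relative of Pde8a, was not called (0.02 ± 0.22, 95% confidence interval -0.51 to 0.54), and neither was Pde2a, which cyclic GMP activates (0.03).

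**Figure D4:**
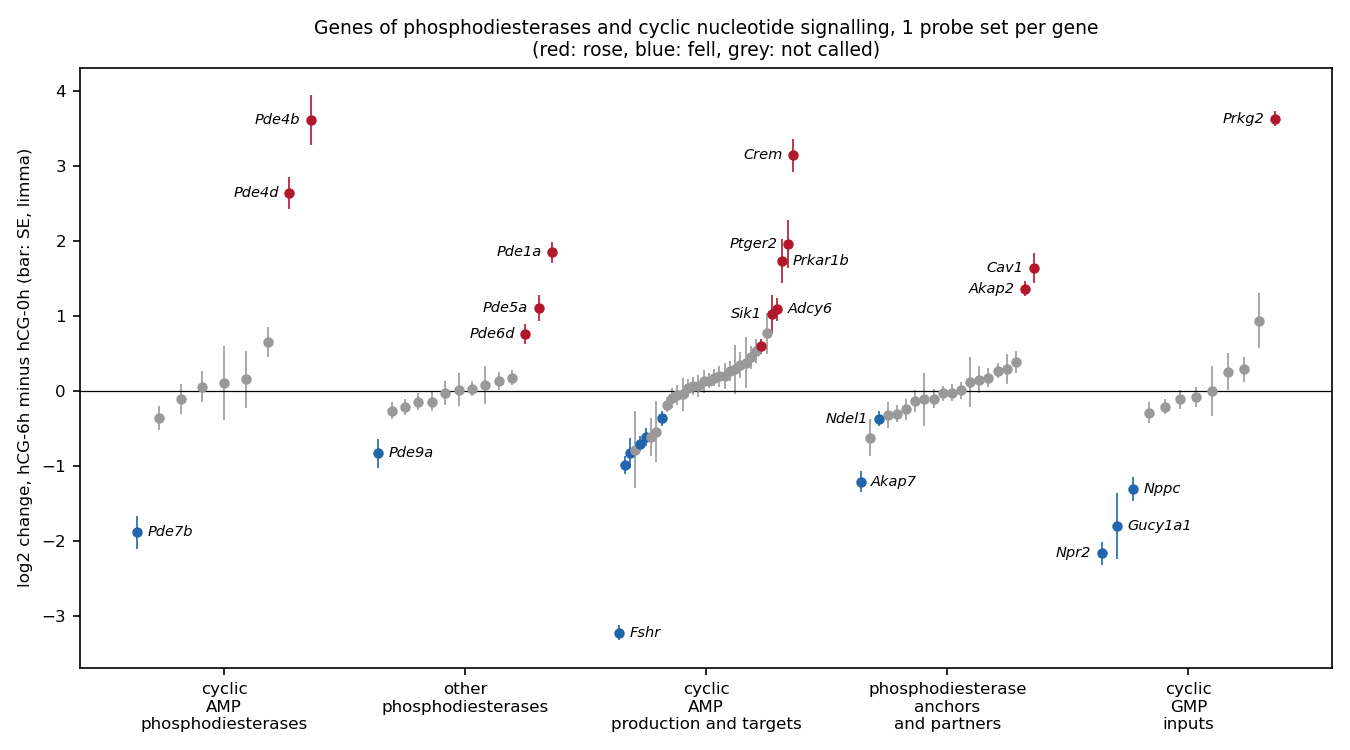
Log2 change, hCG-6h minus hCG-0h (vertical axis, bars are limma's SE), of each measured gene in 5 groups (horizontal axis), by its reference probe set, red for genes that rose, blue for genes that fell and grey for those not called. Pde4b at 3.61 and Pde4d at 2.64 top the cyclic AMP phosphodiesterases, and Fshr at -3.22 and Prkg2 at 3.63 are the outermost genes of the other groups.

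Among genes that make cyclic AMP or answer to it, 6 of 34 rose, 6 fell and 22 were not called. Of all genes 10.8% rose and 10.5% fell. The median log2 change of the list was 0.132, and that of all genes 0.007. Fshr, the receptor of follicle-stimulating hormone, read 11.41, 11.52 and 11.41 at hCG-0h and 8.34, 8.19 and 8.15 at hCG-6h (-3.22 ± 0.10, adjusted p = 1.41e-05). The treated samples were more than 3 log2 units lower. Crem, whose locus also makes the cyclic AMP-induced repressor ICER, rose by 3.14 ± 0.22 (8.82-fold, adjusted p = 0.000187), though 2 of its 4 probe sets passed. Ptger2, a prostaglandin E2 receptor that raises cyclic AMP, rose by 1.96 ± 0.32, Prkar1b, a regulatory subunit of protein kinase A, by 1.73 ± 0.29, the cyclase gene Adcy6 by 1.09 ± 0.15 and Sik1, a kinase induced by cyclic AMP, by 1.03 ± 0.25 (adjusted p = 0.00585, 0.00726, 0.00299 and 0.0266). The call of Sik1 ended without any 1 hCG-6h sample (adjusted p 0.0596 to 0.0781). Beside Fshr, the genes that fell were Pkig (-0.98), Adcy9 (-0.83), Prkar2b (-0.7), Prkacb (-0.61) and Crebbp (-0.36). The remaining gene that rose was the cyclase gene Adcy3 (0.6). Without hCG-6h sample 3, 3 of the genes on this list fell in place of 6.

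Of 20 anchors and partners that place phosphodiesterases in the cell, 2 rose and 2 fell, a share near that of all genes (10.8% rose and 10.5% fell), with a median log2 change of -0.023. Cav1, the caveolar coat protein, rose by 1.64 ± 0.20 and Akap2, an A-kinase anchor, by 1.36 ± 0.10, while Akap7, another anchor, fell by 1.21 ± 0.14 (adjusted p = 0.00178, 0.000194 and 0.00153). Of the 2 Akap7 probe sets, 1 was called. Ndel1, a cytoskeletal partner, changed by -0.37 (adjusted p = 0.0483) and was not called with any 1 sample left out (adjusted p 0.0663 to 0.135). Pde4dip, the PDE4D-binding protein myomegalin, was not called (-0.13, 95% confidence interval reaching 0.22).

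Cyclic GMP is the nucleotide that holds PDE3A back in the oocyte. In the group of cyclic GMP inputs, which also holds Prkg2, a target of cyclic GMP, 3 of 12 fell, 1 rose and 8 were not called. The shares of all genes were 10.5% falling and 10.8% rising. The median log2 change of the group was -0.097, and that of all genes 0.007. Npr2, the receptor that makes cyclic GMP in cumulus cells, read 11.13, 11.22 and 11.05 at hCG-0h and 9.21, 9.01 and 8.69 at hCG-6h, a fall of 2.16 ± 0.15 (adjusted p = 0.000181). Nppc, the precursor of its ligand, fell by 1.31 ± 0.16 (adjusted p = 0.00179). Gucy1a1, a subunit of soluble guanylyl cyclase, fell by 1.80 ± 0.44 (adjusted p = 0.0300), which was not called without any 1 hCG-0h sample (adjusted p 0.0726 to 0.0911). In the fit by probe set, 3 of the 3 Gucy1a1 sets were called as falls. Prkg2, a kinase switched on by cyclic GMP, was the gene that rose, by 3.63 ± 0.10 (12.4-fold, adjusted p = 9.92e-06), and a further gene rose without hCG-6h sample 1.

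By the distance between centred log2 values over the 6 samples, the 5 genes whose pattern was most like that of Pde4b 1422474_at were Pgr, Tgfb1, Cd44, Il33 and Aard. Pgr, the progesterone receptor gene, was nearest at a Euclidean distance of 0.28, and read 5.22, 4.29 and 4.61 at hCG-0h and 7.88, 8.36 and 9.02 at hCG-6h. Like Pde4b it was highest in sample 1 among the hCG-0h samples and in sample 3 among the hCG-6h samples. The other 4 lay at distances of 0.70 to 0.80. These genes were picked for likeness over the same 6 arrays, so the likeness is a description and was not tested.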

How the data were processed

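Total RNA of 6 cumulus cell samples was amplified, labelled with biotin and hybridised to 1-colour Affymetrix arrays, 1 per sample, per the labels' protocols. The authors deposited log2 values, rounded to 2 decimals, of 45101 probe sets. GCOS, Expression Console 1.1 and RMA are named in the submitters' processing notes. RMA corrects background, quantile-normalizes and summarises probes, and draws dim probe sets toward a floor. The build behind the array's annotation is not given in the sources used. Array medians ran from 6.43 to 6.46, and Pearson's r across probe sets, which are not independent, was 0.9824 to 0.9854 within groups and 0.9386 to 0.9406 between them. Precision is limited by the number of arrays.

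Of the probe sets, 34958 had 1 symbol in the platform annotation, 932 several and 9211 were not listed, and only the first were used. Entrez identifiers of 99.4% matched RefSeq's gene table. Promoter windows are RefSeq's (GRCm38.p6).

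hCG-6h was compared with hCG-0h with limma 3.58.1 in R 4.3.3 (lmFit, eBayes, group as the only term, all 6 samples, two-sided, Benjamini-Hochberg, threshold 0.05) in 3 fits. These were all 34958 probe sets, 18194 genes by the probe set with the highest mean, and 16764 within-array differences between a probe set and that reference set. Folds are 2 to the power of the log2 change. Scripts were tested on simulated data. Named genes are all family members, up to 6 genes past the threshold with the largest changes of each of 4 lists, and the 5 nearest to the member with the largest change. Any other gene named was chosen after its values were seen. The members and lists were chosen with earlier results of these data known. Alternatives were a replicate block, a trend and robust variance, renewed quantile normalization, median centring, a filter on dim probe sets, array weights, hCG-6h sample 1 as the only treated sample, leaving out each sample, all rows of the table, averaging the probe sets of a gene, and the mean of its other sets as reference.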

Additional observations from a re-analysis of the deposited data

How the results depend on the processing

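Each called probe set of Pde4b, Pde4d, Pde7a, Pde7b and Pde10a kept its direction under the alternatives run for it, which for 1419390_at and 1439618_at of Pde10a leave out the filter on dim sets that removes them. Of 30 probe sets 5 to 7 rose and 1 to 2 fell, with 6 to 7 and 1 to 2 when each sample was left out in turn. With hCG-6h sample 1 alone 1 fell, 0 pairs of probe sets differed, 1 other phosphodiesterase rose and 0 fell, 3 cyclic AMP genes rose and 1 fell, and 1 anchor rose and 1 fell; the lone sample is assumed to vary like the others. Without the dimmest 1 in 3 probe sets 0 pairs were called. That filter removes pairs with a dim partner, and fewer pairs were tested. The Pde4b pair of 1442700_at and 1422474_at stayed in and was not called (-2.20 ± 0.38, limma, adjusted p = 0.0543). Why its adjusted p rose was not tested. Leaving out each sample gave 3 to 4 called pairs, 0 to 1 other phosphodiesterases falling, 3 to 5 cyclic AMP genes falling, 1 anchor falling and 1 to 2 cyclic GMP genes rising. With probe sets averaged per gene 2 other phosphodiesterases fell and 2 cyclic GMP genes rose; the cause was not tested. One anchor fell with the replicate block, a trend and robust variance, renewed quantile normalization, median centring or array weights (1 in each), Ndel1 being lost. Against the mean of the other Pde4b sets, which includes the dim ones, the difference of 1422473_at turned from -0.91 to 1.69 and that of 1442700_at from -2.20 to 0.15.

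Samples of the same number did not deviate together (r of deviations 0.027, -0.004 and 0.027), so the numbers were not taken as pairs. With the replicate block, 6 member probe sets rose and 2 fell, and 5 pairs of probe sets were called. Dim signal limits the 3 Pde4b, 1 Pde4d, 2 Pde3a and 2 Pde10a sets in the dimmest 1 in 3.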
